A study of Mus musculus with 24 samples.

Results

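The glutathione, peroxiredoxin and thioredoxin genes of the mouse uterus were taken by symbol from a table of 22943 genes. A gene was a member if its symbol began with Gst and a further letter, Mgst, Gpx or Prdx and a digit, or Txn, or if it was Gclc, Gclm, Gss or Gsr. The names gave 63 genes and used no measured value. They comprised 4 genes of glutathione synthesis and recycling, 23 cytosolic and mitochondrial glutathione S-transferases, 3 microsomal glutathione S-transferases, 9 glutathione peroxidases, 7 peroxiredoxins, 6 genes for thioredoxins, thioredoxin reductases and Txnip, and 11 thioredoxin domain-containing or thioredoxin-like genes. A few answer to the name more than to the chemistry: Txnl4a and Txnl4b encode proteins linked to the spliceosome, and Gpx2-ps1 is a pseudogene.

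Glutathione is a small tripeptide thiol made by glutamate-cysteine ligase (the catalytic subunit Gclc and the modifier subunit Gclm) and glutathione synthetase (Gss), and its oxidised form is recycled with NADPH by glutathione reductase (Gsr). Glutathione S-transferases join it to reactive compounds, and glutathione peroxidases use it to reduce hydroperoxides. Peroxiredoxins reduce peroxides through a reactive cysteine that is mostly restored by thioredoxin, and thioredoxin is in turn reduced by the NADPH-dependent thioredoxin reductases. Many of these genes carry antioxidant response elements, the sites bound by the transcription factor NRF2.

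Whole uteri of 21-day-old C57bl/6 females were profiled by RNA sequencing. The study asks how the chromatin-organising protein CTCF bears on the response of the immature uterus to progesterone. Knockout mice were PgreCre+;Ctcf-f/f, also labelled Ctcf-d/d, in which Pgr-driven Cre cuts the floxed Ctcf allele. Their controls were Ctcf-f/f littermates without Cre, here called floxed. Both genotypes carried the floxed allele and only knockouts carried Cre, so effects of Cre and of losing Ctcf cannot be told apart. Mice of each genotype received a subcutaneous injection of 0.5 mg progesterone in 0.05 ml sesame oil, or the oil alone (vehicle), and tissue was taken 6 h later. There were 8 floxed vehicle, 8 knockout vehicle, 4 floxed progesterone and 4 knockout progesterone libraries. They fell into 2 batches by the tag of the library, which does not itself say what step differed. The mixed batch held 16 libraries with 4 of every group. The vehicle-only batch held 8, with 4 vehicle libraries per genotype. Replicate numbers 1 and 11 occur in both batches, and the letters a (vehicle-only) and b (mixed) tell them apart. The labels do not say that each library is a separate animal, so the p-values measure the spread between these libraries.

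Depth, estimated from the worth of a single read in each library, lay between 29500000 and 100000000 reads, and the median was 71600000 for the mixed and 49200000 for the vehicle-only libraries. Ctcf was at 25.9 ± 2.36 RPKM (SD, n = 8) in floxed vehicle and 11.5 ± 1.11 in knockout vehicle libraries, and at 26.0 ± 1.05 (n = 4) and 9.95 ± 0.982 after progesterone, with no overlap between genotypes. Some Ctcf transcript thus remained, and the tissue also holds cells in which this Cre is not active. All 10 leukocyte markers were higher in knockouts under both treatments. Their summed level was 108 to 164 RPKM in floxed vehicle and 207 to 338 in knockout vehicle libraries, and 109 to 181 against 167 to 376 after progesterone. Of 8 simple-epithelium markers, 6 were lower and 1 higher in vehicle knockouts (summed 261 to 393 RPKM against 369 to 583). In progesterone-treated knockouts 4 of these 8 were higher than in vehicle knockouts (summed 406 to 557). No smooth-muscle marker of 6 was called in any comparison, but their sums in knockout vehicle 9 (2097 RPKM) and knockout progesterone 8 (1973) were above all others (at most 1726). The stroma marker sum was highest in knockout vehicle 9, at 2325 RPKM. In knockout progesterone 8 it was 1389, against 931 to 998 in the rest of its group and 1270 to 1629 in floxed vehicle libraries. Oviduct markers reached a sum of 425 RPKM in floxed progesterone library 7, 232 in knockout vehicle 12 and 146 in floxed vehicle 3. In the other mixed-batch libraries they reached at most 2.76, and in vehicle-only libraries 20.0 to 63.6. Squamous markers reached 79.3 in knockout vehicle 9 and 19.5 in knockout progesterone 8, and at most 15.1 elsewhere. In bulk tissue, a change in the number of cells of a type and a change in RNA per cell cannot be told apart, and the part of these cell-type shifts in the results that follow was not tested.

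Of the 63 members, 51 reached 1 RPKM in at least 4 libraries and were tested. RPKM, reads per kilobase of transcript scaled by sequencing depth, allows levels to be set beside each other across genes. The 12 untested members were Gsta1, Gsta2, Gstm3, Gstm6, Gstp3, Gstt4, Mgst2, Gpx2-ps1, Gpx5, Gpx6, Prdx6b and Txndc2. Nearest to the limit were Mgst2, at 1 RPKM or more in 3 libraries, and Gsta2, in 2. Gsto2 passed with 10 libraries, all of them knockouts, so its inclusion already depended on the groups in which it was high.

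On this per-length scale Txnip, which binds and inhibits thioredoxin, had the highest mean level over the 24 libraries, at 187 RPKM. Gpx1, the main cytosolic glutathione peroxidase, followed at 122, then the cytosolic peroxiredoxin Prdx1 at 111, Gstm1 at 101, Gstp1 at 99.6, Gstm2 at 99.1, Prdx2 at 82.8 and the mitochondrial thioredoxin Txn2 at 81.9. The lowest tested members were Gsta3 at 2.97 and Gsto2 at 0.980 RPKM.

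**Figure D1:**
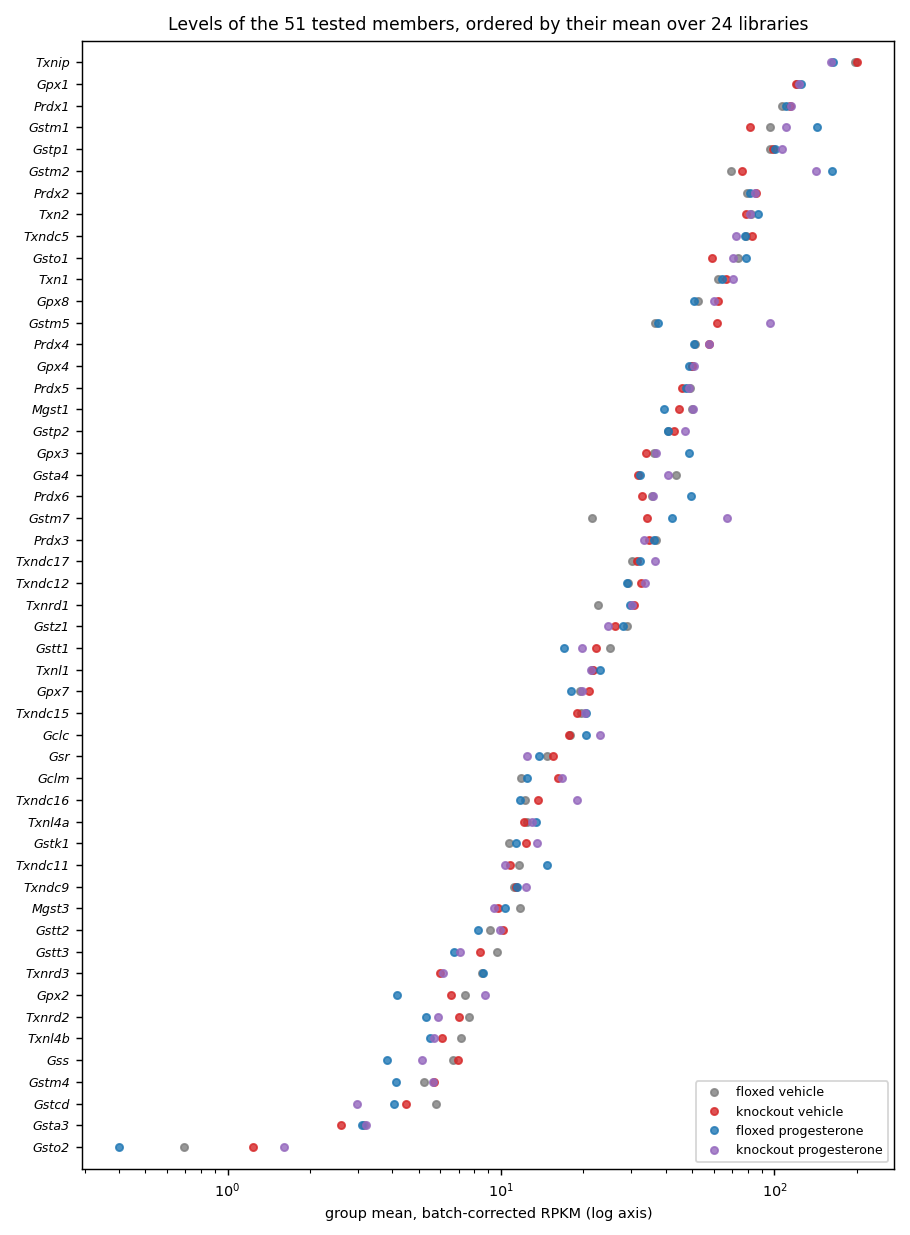
Mean level of each of the 51 tested members in the 4 groups, in batch-corrected RPKM on a log axis, with genes ordered by their mean over 24 libraries. The 4 points of most genes lie close together, from Txnip at 187 down to Gsto2 at 0.980 RPKM, and they spread apart most for Gsto2, Gstm7, Gstm5, Gstm2, Gpx2, Gstcd and Gss.

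Differences were tested with limma on log2(RPKM + 0.5), with 4 groups and batch in 1 model and Benjamini-Hochberg adjustment over the 14284 genes tested. A gene is described as higher, lower, risen or fallen where its adjusted p was below 0.05. In vehicle-treated mice 8 of 51 members differed between genotypes (15.7%), against 24.6% of all genes tested. Gclm, Gstm5, Gstm7, Gsto2 and Txnrd1 were higher in knockouts, and Gsta4, Txnrd3 and Txnl4b were lower, while 13.1% of all genes were higher and 11.5% lower. After progesterone 8 members differed (15.7%, against 19.4% of all genes). Gclm, Gss, Gstm5, Gsto2 and Txndc16 were higher in knockouts, and Prdx6, Txnrd3 and Txndc11 were lower, beside 12.3% and 7.06% of all genes.

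In floxed mice progesterone changed 11 members (21.6%, against 23% of all genes): Gstm1, Gstm2, Gstm7, Prdx6 and Txnrd1 rose, and Gss, Gsto2, Gstt1, Gstt3, Txnrd2 and Txnl4b fell. Of all genes 7.84% rose and 15.1% fell there. In knockouts it changed 4 (7.84%, against 8.67% of all genes): Gstm2, Gstm5 and Gstm7 rose and Gss fell, beside 4% and 4.66% of all genes. The progesterone response itself differed between genotypes for Gstm5 and Gsto2 (3.92% of members, against 2.49% of all genes, 1.46% upward and 1.03% downward). When knockout vehicle 9 and 12, floxed vehicle 3, floxed progesterone 7 and knockout progesterone 8 were all left out, limma called none of the 51 members for progesterone in knockouts (7 had an unadjusted p below 0.05) and neither of these differences in response. The members' share thus lay below the background for the genotypes under vehicle and near it in the other comparisons. These gaps were not tested. Altogether 17 members were called in at least 1 comparison and 34 in none. The share of all genes called in at least 1 comparison is not given here, so this count has no background beside it. All these counts include Gsto2, which passed the filter through knockout libraries alone. The comparisons are not independent, since each pair of them that meets in a group shares its libraries.

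The median size of a member's log2 difference was smaller than that of all genes in every comparison, without matching for expression level or a test. It was 0.105 against 0.138 for the genotypes under vehicle, 0.155 against 0.190 for the genotypes after progesterone, 0.0996 against 0.188 for progesterone in floxed mice, and 0.0990 against 0.143 for progesterone in knockouts.

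**Figure D2:**
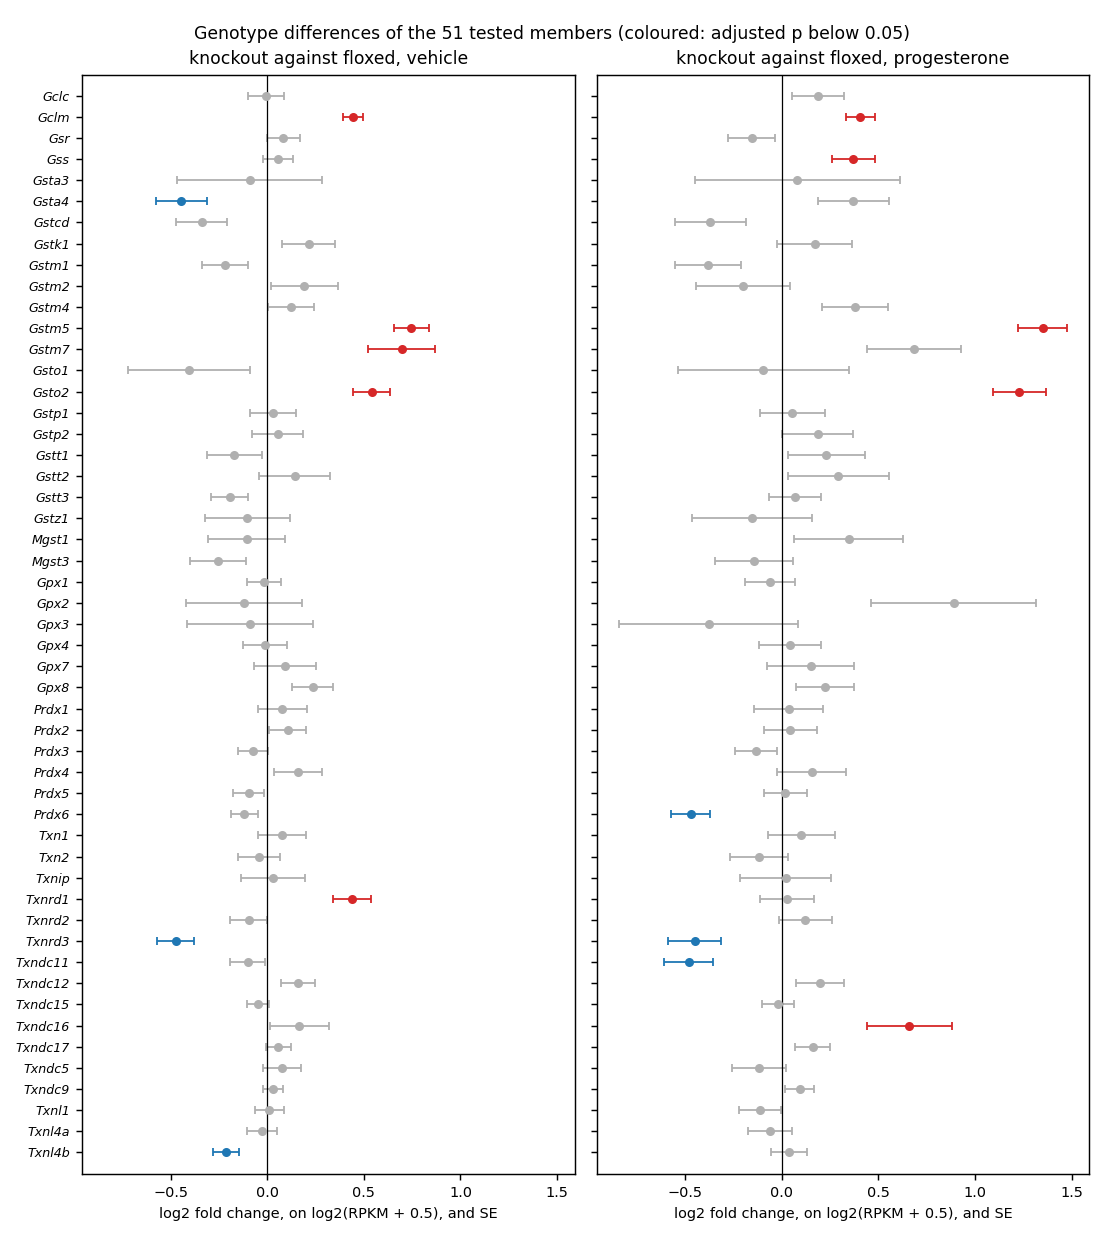
Log2 fold change of knockout against floxed libraries, with its standard error, for the 51 tested members under vehicle (8 against 8 libraries) and after progesterone (4 against 4), in role order. Coloured points have an adjusted p below 0.05, red for higher and blue for lower in knockouts. Gstm5 and Gsto2 lie far to the right in the progesterone panel, at 1.35 and 1.23, and most grey points lie near 0.

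The proximal promoters of 3 of the 5 members that were higher in vehicle knockouts are shown here because they hold the core of an antioxidant response element. The letters searched, on both strands, were TGACNNNGC, where N is any base, in RefSeq windows from 250 bases before to 50 bases after a start site (GRCm38.p6). Each sequence runs 5′ to 3′ on the plus strand, which is the gene's strand, from 200 to 31 bases before the start site, with the match in capitals. The Gclm sequence lies at chr3:122245357-122245526, the Gstm5 sequence at chr3:107895654-107895823 and the Txnrd1 sequence at chr10:82859006-82859175.
Gclm: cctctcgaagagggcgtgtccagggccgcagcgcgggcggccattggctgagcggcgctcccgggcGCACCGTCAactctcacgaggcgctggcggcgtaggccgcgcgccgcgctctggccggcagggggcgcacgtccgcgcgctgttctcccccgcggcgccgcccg
Gstm5: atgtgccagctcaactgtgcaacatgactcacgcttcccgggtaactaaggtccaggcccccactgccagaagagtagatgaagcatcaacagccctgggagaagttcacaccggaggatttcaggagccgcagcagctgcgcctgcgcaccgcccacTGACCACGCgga
Txnrd1: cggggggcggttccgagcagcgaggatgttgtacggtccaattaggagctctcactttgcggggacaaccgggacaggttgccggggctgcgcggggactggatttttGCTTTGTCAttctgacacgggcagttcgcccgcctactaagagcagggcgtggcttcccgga

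In Gclm and Txnrd1 the match is on the minus strand and therefore reads as its reverse complement. A further window, at a start site of Gstm7, also held these letters, so 4 of the 5 members higher in vehicle knockouts had a match, and Gsto2 had none. Over the 15 members with a window that were called in any comparison, 5 had a match. Only full-length windows were counted, without those of chromosome 18, where the members Txnl1 and Txnl4a lie. Over the windows counted the letters occur in 12.4% of 32851, and in at least 1 window of 14% of 27025 genes. Of 54 members with a window 10 had a match (18.5%), among them Gsta3, Mgst1, Prdx1, Txndc5 and Txndc11. A match is a string of letters and not an observed binding site. A progesterone and glucocorticoid receptor element occurs in 0.475% of windows, and among the 54 members in Txnip. The core of the CTCF motif occurs in 2.43% of windows, and among these members in Gstm1 and Gstm6. Both were searched on both strands.

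Among the genes of glutathione synthesis, Gclm separated the genotypes completely. Gclm, which encodes the modifier subunit that raises the efficiency of glutamate-cysteine ligase, lies at chr3:122245557-122270732 on the plus strand (GRCm38, the same assembly as mm10). It was at 10.3 to 13.1 RPKM (median 12.1) in floxed vehicle and 14.9 to 17.9 (median 16.0) in knockout vehicle libraries. After progesterone it was at 12.6, 12.9, 12.3 and 12.1 in floxed libraries and at 17.6, 16.6, 15.7 and 16.9 in knockouts. All 12 knockout libraries were above all 12 floxed ones, whatever the treatment. The log2 difference was 0.45 (SE 0.05, adjusted p = 1.04e-06) under vehicle and 0.41 (SE 0.07, adjusted p = 0.000427) after progesterone. The vehicle difference was 0.37 in mixed-batch libraries alone (adjusted p = 0.000953) and 0.52 in vehicle-only ones (adjusted p = 0.0121). Progesterone gave values of 0.07 in floxed mice and 0.04 in knockouts for Gclm, neither past the threshold (adjusted p = 0.486 and 0.822).

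The catalytic subunit gene Gclc did not follow Gclm. Its means were 17.9 ± 2.82 RPKM in floxed vehicle and 17.7 ± 1.93 in knockout vehicle libraries (n = 8 each), a log2 difference of -0.01 with an interval of 2 SE on either side from -0.19 to 0.18. After progesterone it was at 22.6, 24.2, 22.9 and 22.4 in knockouts, above all 8 vehicle knockouts (15.0 to 20.9). That difference of 0.37 did not pass the threshold (adjusted p = 0.0699).

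Gss, glutathione synthetase, was the member that fell with progesterone in both genotypes. It was at 6.03 to 7.63 RPKM (median 6.58) in floxed vehicle libraries and at 3.50, 4.39, 4.08 and 3.39 in floxed progesterone libraries, with no overlap. In knockouts it was at 5.71 to 7.88 (median 6.88) under vehicle and at 4.22, 4.71, 5.64 and 5.95 after progesterone, where the 2 groups met at their edges. The log2 change was -0.73 (SE 0.10, adjusted p = 2.13e-05) in floxed mice and -0.41 (SE 0.10, adjusted p = 0.0133) in knockouts. The difference between these responses, 0.32, did not pass the threshold (adjusted p = 0.267). Progesterone-treated knockouts had more Gss transcript than progesterone-treated floxed mice, by 0.37 (SE 0.11, adjusted p = 0.0192), and under vehicle the genotypes differed by 0.05 (adjusted p = 0.668). The fall in knockouts was not called without knockout progesterone library 4 (-0.33, adjusted p = 0.0597). The genotype call was lost in 4 of the fits that left out a single progesterone library (floxed 1 or 9, knockout 6 or 8; adjusted p = 0.0539 to 0.0697). Gss overlaps Acss2 (12.2 RPKM) on the opposite strand, and since no strand setting is stated, reads in the overlap cannot be told apart. Gsr, the reductase that recycles glutathione, was not called in any comparison, its widest value being -0.32 with progesterone in knockouts (adjusted p = 0.0879).

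**Figure D3:**
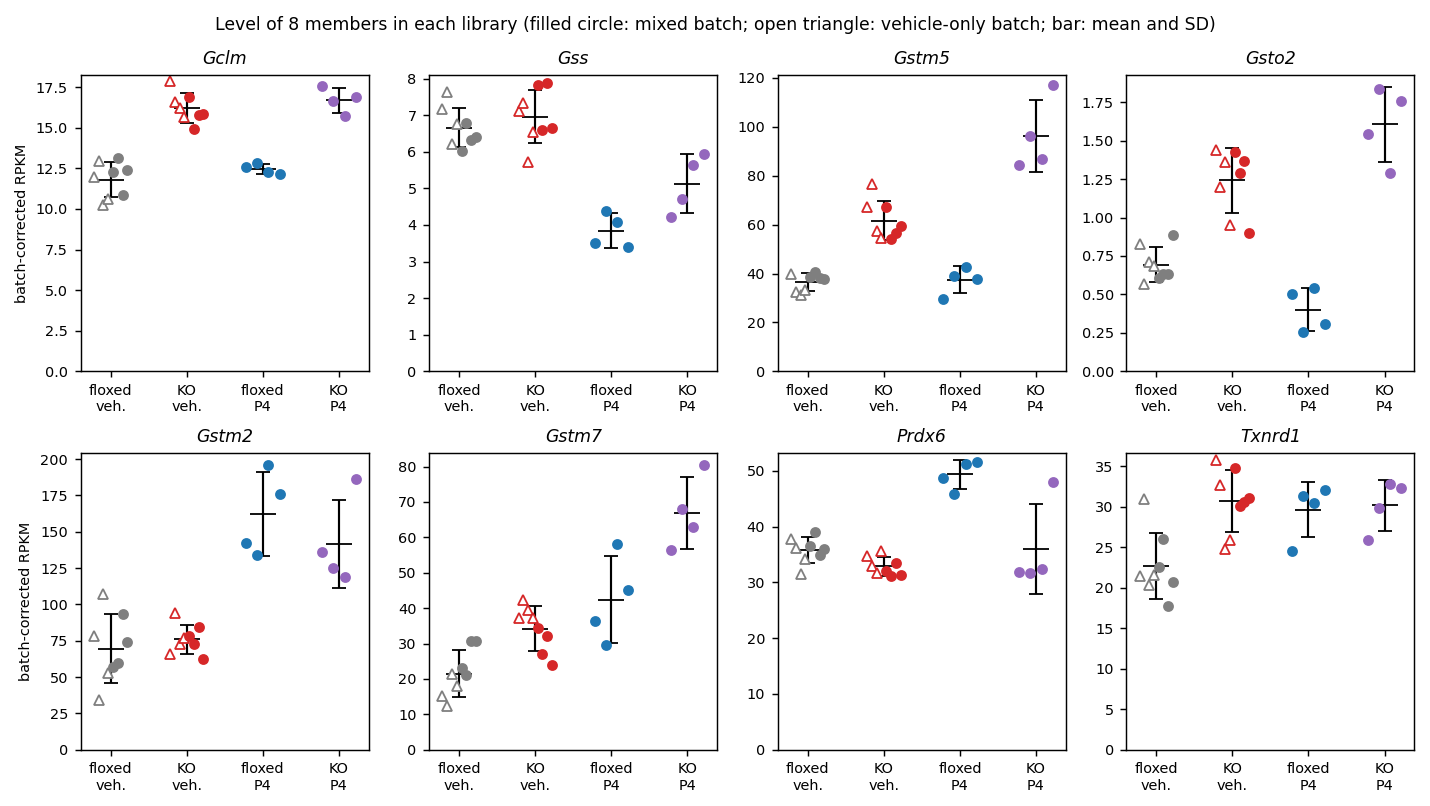
Batch-corrected RPKM of Gclm, Gss, Gstm5, Gsto2, Gstm2, Gstm7, Prdx6 and Txnrd1 in each of the 24 libraries, by group (veh., vehicle; P4, progesterone; KO, knockout). Filled circles are the mixed batch, open triangles the vehicle-only batch, and bars give the mean and SD. Gclm and Gstm5 are higher in every knockout than in every floxed library of the same treatment, and a single knockout progesterone library of Prdx6 stands at 48.0.

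Of the 17 tested glutathione S-transferases of the cytosolic and mitochondrial families, 4 were called for genotype under vehicle (23.5%, beside 24.6% of all genes) and 6 for progesterone in floxed mice (35.3%, beside 23%). They did not move as a block: in floxed mice 3 rose and 3 fell, and their median log2 change was -0.02 beside -0.06 for all genes.

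Gstm5 showed the largest genotype difference of any member on the log2(RPKM + 0.5) scale; with 0.1 added, Gsto2 exceeded it after progesterone. This mu-class transferase, whose promoter was printed with those of Gclm and Txnrd1, was at 31.1 to 40.5 RPKM (median 38.0) in floxed vehicle and 54.2 to 76.5 (median 58.4) in knockout vehicle libraries. After progesterone it stood at 29.8, 39.1, 42.8 and 37.9 in floxed and at 84.4, 96.2, 87.0 and 117 in knockout libraries. The genotypes did not overlap under either treatment, and the progesterone-treated knockouts were above all other libraries. The genotype difference was 0.75 (SE 0.09, adjusted p = 1.21e-06) under vehicle, with 0.60 and 0.89 in the mixed and vehicle-only batches (adjusted p = 0.00199 and 0.00325). After progesterone it was 1.35 (SE 0.13, adjusted p = 7.95e-08), which corresponds to 155% more on the scale of RPKM + 0.5. Progesterone raised Gstm5 in knockouts by 0.61 (SE 0.12, adjusted p = 0.00193), while the value in floxed mice was 0.01 with an interval of 2 SE from -0.23 to 0.25.

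The test of the difference between these Gstm5 responses gave 0.60 (SE 0.15, adjusted p = 0.0362). This call was close to the threshold: leaving out a single library took it to the other side in 14 of 24 cases, with adjusted p of 0.0533 to 0.0862 in those cases and log2 values of 0.50 to 0.63. In the mixed batch alone the difference was 0.75 (adjusted p = 0.0225). An antisense transcript, 4933431E20Rik, overlaps Gstm5 and averaged 4.70 RPKM.

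Gsto2, an omega-class transferase that also reduces dehydroascorbate, was likewise higher in knockouts, at a far lower level. It was at 0.565 to 0.888 RPKM (median 0.659) in floxed vehicle and 0.900 to 1.44 (median 1.32) in knockout vehicle libraries. In floxed progesterone libraries it was at 0.502, 0.257, 0.542 and 0.307, and in knockout progesterone libraries at 1.55, 1.83, 1.29 and 1.76. Every knockout library lay above every floxed one. Gsto2 reached 1 RPKM in 10 libraries, all of them knockouts, and was tested only because of these. Its genotype p-values and this separation are therefore given as description only. The log2 difference was 0.54 (SE 0.10, adjusted p = 0.000213) under vehicle and 1.23 (SE 0.14, adjusted p = 1.07e-06) after progesterone. Under vehicle the value was 0.55 among mixed-batch libraries (adjusted p = 0.0167) and 0.53 among vehicle-only ones (adjusted p = 0.0561). Progesterone lowered it in floxed mice by -0.41 (SE 0.13, adjusted p = 0.0242), and in knockouts the value was 0.28 (adjusted p = 0.2). The fall in floxed mice was not called without floxed progesterone library 2 or 9 or floxed vehicle library 4 (adjusted p = 0.064 to 0.0958), on the RPKM scale (adjusted p = 0.134) or after quantile normalization (adjusted p = 0.212).

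For Gsto2 the difference between the responses was 0.69 (SE 0.17, adjusted p = 0.0274). It no longer passed in the mixed batch alone (0.68, adjusted p = 0.0913), after quantile normalization (0.61, adjusted p = 0.0589) or without floxed progesterone library 2 or 9 or knockout progesterone library 5 or 8 (adjusted p = 0.0568 to 0.0861). The added 0.5 shrinks the fold change of a gene at this level: with 0.1 added, the genotype difference after progesterone was 1.80. Gsto2 lies at chr19:47865534-47886324 and overlaps Cfap43 (0.673 RPKM) on the other strand, so part of its reads could belong to either gene.

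Gstm2 and Gstm7 rose with progesterone in both genotypes. Gstm2 was at 33.9 to 107 RPKM (median 66.8) in floxed vehicle libraries and at 142, 134, 196 and 176 after progesterone, and at 62.1 to 93.9 (median 74.8) and then 136, 125, 119 and 186 in knockouts. Treated and untreated libraries did not overlap in either genotype, although floxed vehicle libraries varied widely. The log2 change was 1.25 (SE 0.23, adjusted p = 0.000407) in floxed mice, the largest progesterone response of any member, and 0.86 (SE 0.23, adjusted p = 0.0209) in knockouts. Their difference was -0.39 with an interval of 2 SE from -0.99 to 0.21 (adjusted p = 0.623). In knockouts the call was lost without knockout progesterone library 8 (0.72, adjusted p = 0.0869) or knockout vehicle library 9 (0.79, adjusted p = 0.0541), the libraries with the highest squamous marker sums.

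Gstm7 was at 12.3 to 30.7 RPKM (median 21.2) in floxed vehicle and 23.8 to 42.4 (median 35.8) in knockout vehicle libraries. It was at 36.5, 29.6, 58.2 and 45.1 in floxed and at 56.3, 67.9, 62.8 and 80.5 in knockout progesterone libraries. Progesterone raised it by 0.92 (SE 0.23, adjusted p = 0.0054) in floxed mice and by 0.91 (SE 0.23, adjusted p = 0.0137) in knockouts, a difference of -0.01 with an interval of 2 SE from -0.60 to 0.58. In knockouts the call was lost without knockout progesterone library 8 (0.81, adjusted p = 0.053). Knockouts had more Gstm7 under vehicle, by 0.70 (SE 0.17, adjusted p = 0.00412). That genotype difference was 1.23 among vehicle-only libraries (adjusted p = 0.00161) but 0.16 among mixed-batch ones (adjusted p = 0.626), so it did not hold within both batches. After progesterone, where all libraries are of the mixed batch, the genotype difference was 0.69 (adjusted p = 0.0504), just outside the threshold. It passed under 6 alternatives: the RPKM scale, the mixed batch alone, a pseudocount of 1, quantile normalization, and without floxed progesterone library 7 or the 5 libraries (adjusted p = 0.00395 to 0.0486).

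Gstm1 also rose in floxed mice, from 66.6 to 120 RPKM (median 98.5) under vehicle to 149, 119, 158 and 144, a log2 change of 0.58 (SE 0.16, adjusted p = 0.0115). In knockouts the value was 0.42 (adjusted p = 0.113). Gstm4, at 5.27 RPKM on average, was not called in any comparison.

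These mu-class genes sit side by side within 149 kb of chromosome 3 in the order Gstm5, Gstm7, Gstm6, Gstm3, Gstm2, Gstm1, Gstm4, with Gstm5 on the plus strand and the other 6 on the minus strand. Gstm5 spans chr3:107895821-107898686, Gstm7 chr3:107926334-107931817, Gstm2 chr3:107981702-107986453 and Gstm1 chr3:108012255-108017973. Their calls were not alike. Gstm5, at one end, was called for genotype under both treatments and for progesterone in knockouts, Gstm2 and Gstm1 for progesterone only, and Gstm7 for genotype under vehicle and for progesterone. Gstm6 and Gstm3 averaged 0.461 and 0.246 RPKM and were below the limit for testing. With no filter on low values, limma called both. Gstm3 was higher in knockouts under vehicle (0.47, adjusted p = 0.000175) and after progesterone (0.94, adjusted p = 5.09e-06). It rose with progesterone in knockouts (0.59, adjusted p = 0.00156). Gstm6 was lower in knockouts under vehicle (-0.48, adjusted p = 0.00267) and after progesterone (-0.765, adjusted p = 0.00145). Neither gene reached 1 RPKM in any library. The mu-class genes are close paralogs, and how reads shared between them were assigned is not stated, so the split between them is uncertain.

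The summed level of the 7 mu-class genes depends less on that split, although the genes differ in length and the split therefore still bears on it. The sum was 230 ± 47.4 RPKM (SD, n = 8) in floxed vehicle and 260 ± 25.6 in knockout vehicle libraries, and 389 ± 58.2 (n = 4) in floxed and 421 ± 77.8 in knockout progesterone libraries. Every progesterone library (327 to 538 RPKM) was above every vehicle library (150 to 309). The highest sums under progesterone, 461 in floxed library 7 and 538 in knockout library 8, came from a library with a high oviduct marker sum (425 RPKM) and one with a squamous marker sum of 19.5 RPKM.

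**Figure D4:**
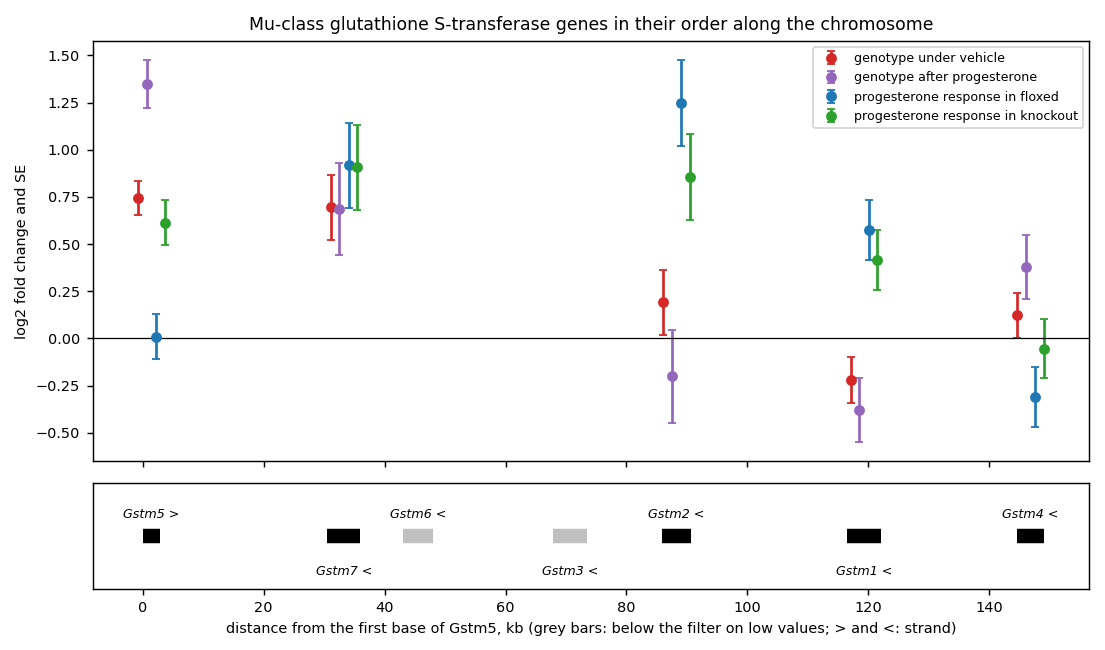
Log2 fold change and standard error of the 5 tested mu-class genes in 4 comparisons, above a map of the 7 genes by distance from the first base of Gstm5 in kb (black bars, tested; grey bars, below the limit; > and < give the strand). Gstm5 stands out for the genotype after progesterone (1.35), and Gstm2 for progesterone in floxed mice (1.25).

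The theta-class genes Gstt1 and Gstt3, which lie next to each other on chromosome 10, fell with progesterone in floxed mice. Gstt3 was at 6.58 to 10.8 RPKM (median 10.1) under vehicle and at 7.03, 5.64, 7.80 and 6.43 after progesterone, a log2 change of -0.50 (SE 0.13, adjusted p = 0.00629). For Gstt1, described after its values were seen, the change was -0.54 (SE 0.19, adjusted p = 0.0413), from 25.0 ± 5.30 RPKM (n = 8) to 17.0 ± 3.69 (n = 4). The call for Gstt1 was lost without any of 7 single libraries (adjusted p = 0.0531 to 0.163). In knockouts the values were -0.24 for Gstt3 and -0.14 for Gstt1, neither called.

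Gsta4, an alpha-class transferase that acts on the lipid peroxidation product 4-hydroxynonenal, was also described after its values were seen. It was lower in vehicle knockouts, at 25.8 to 34.8 RPKM (median 31.5) against 32.4 to 55.4 (median 42.8), a log2 difference of -0.44 (SE 0.13, adjusted p = 0.0151). Values within the batches were -0.47 and -0.42 but did not pass in either alone (adjusted p = 0.123 and 0.133). After progesterone the genotype difference was 0.37 (adjusted p = 0.173), and the difference between the responses was 0.82 (SE 0.23), outside the threshold at adjusted p = 0.0574. It passed without floxed progesterone library 7 (1.00, adjusted p = 0.0096) or floxed vehicle library 12 (0.88, adjusted p = 0.0236). Gstcd was not called, at -0.34 for genotype under vehicle (adjusted p = 0.0616) and -0.46 for progesterone in floxed mice (adjusted p = 0.0554). Both passed in the mixed batch alone (adjusted p = 0.0405 and 0.0237).

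No microsomal transferase and no glutathione peroxidase was called by limma in any of the 5 comparisons of all libraries. Of all genes 2.49% to 24.6% were called in these comparisons. Of the 2 tested microsomal genes none had an unadjusted p below 0.05. Mgst3 was -0.25 in vehicle knockouts (adjusted p = 0.215), and it was called in the mixed batch alone (-0.54, adjusted p = 0.0087) and without knockout vehicle library 5 (-0.36, adjusted p = 0.0434). Mgst1, the more abundant, was at 50.1 ± 19.5 and 44.9 ± 12.8 RPKM in floxed and knockout vehicle libraries (n = 8 each) and at 39.5 ± 7.66 and 50.5 ± 10.7 after progesterone (n = 4 each). Of the 6 peroxidases, 1 had an unadjusted p below 0.05 in each genotype comparison and none with progesterone. Those were Gpx8, a peroxidase of the endoplasmic reticulum, under vehicle (0.24, adjusted p = 0.111), and Gpx2 after progesterone (0.89, adjusted p = 0.155). Gpx8 was called after quantile normalization (0.23, adjusted p = 0.0249), and Gpx2 without knockout progesterone library 4 (1.28, adjusted p = 0.0377). The secreted peroxidase gene Gpx3 was highest in floxed vehicle library 10 (81.2 RPKM) and knockout vehicle library 5 (76.5), which also had the highest Mgst1 levels (85.0 and 74.5) and the highest summed adipose markers (788 and 791 RPKM). The part of adipose tissue in these levels was not tested. Gpx1 was at 121 ± 6.51, 120 ± 14.8, 125 ± 4.18 and 123 ± 32.0 RPKM in floxed vehicle, knockout vehicle, floxed progesterone and knockout progesterone libraries. Its vehicle genotype difference was -0.02 with an interval of 2 SE from -0.20 to 0.16. For Gpx4, which protects membranes from lipid peroxidation, the interval was -0.24 to 0.22.

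Among the 6 tested peroxiredoxins only Prdx6 was called, for genotype after progesterone and for progesterone in floxed mice. In each of these the share was 16.7%, beside 19.4% and 23% of all genes. Prdx6 encodes a 1-cysteine peroxiredoxin that is restored by glutathione rather than thioredoxin. It was at 31.5 to 39.1 RPKM (median 36.1) in floxed vehicle and 31.2 to 35.6 (median 32.4) in knockout vehicle libraries. After progesterone it was at 48.7, 45.9, 51.3 and 51.6 in floxed and at 31.8, 31.8, 32.5 and 48.0 in knockout libraries. All 4 treated floxed libraries were above all vehicle libraries, and 3 of the 4 treated knockouts stayed within the vehicle range while knockout progesterone library 8 reached the floxed level. The log2 response was 0.46 (SE 0.09, adjusted p = 0.000961) in floxed mice and 0.11 (adjusted p = 0.534) in knockouts, and treated knockouts were lower than treated floxed mice by -0.47 (SE 0.10, adjusted p = 0.00154).

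The difference between the Prdx6 responses was -0.35 (SE 0.12) and did not pass (adjusted p = 0.143). It did pass without knockout progesterone library 8 (-0.50, SE 0.08, adjusted p = 0.00144), whose squamous marker sum was 19.5 RPKM. The genotype difference after progesterone was then -0.62 (adjusted p = 1.86e-06). For Prdx1, Prdx2, Prdx3, Prdx4 and Prdx5, which are restored by thioredoxin, the responses in floxed mice lay between -0.04 and 0.02 and none was called.

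**Figure D5:**
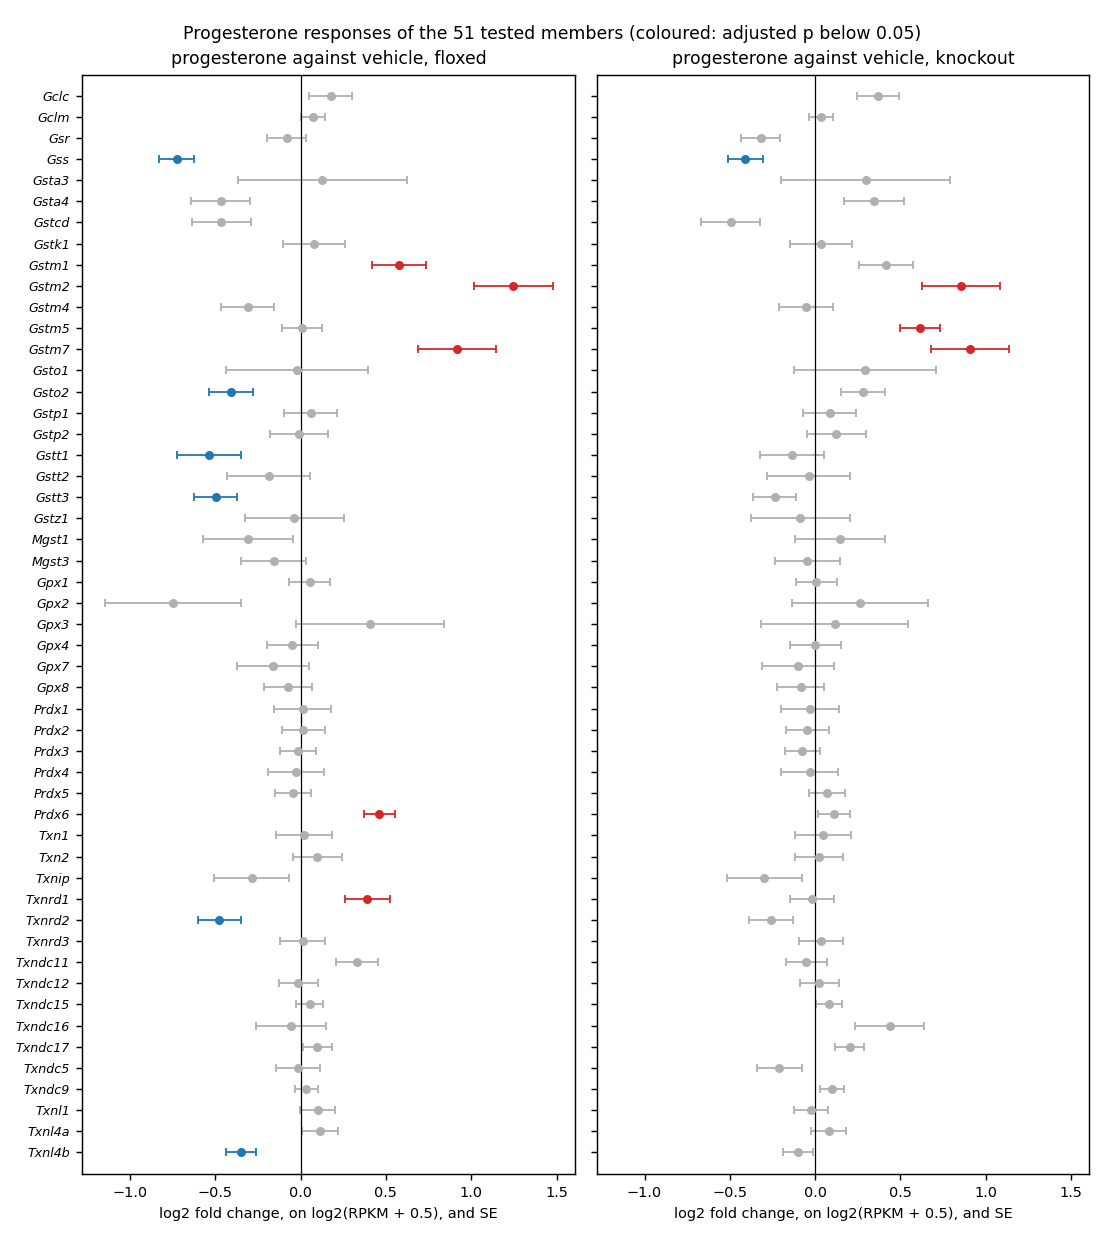
Log2 fold change of progesterone against vehicle libraries, with its standard error, for the 51 tested members in floxed mice (4 against 8 libraries) and in knockouts (4 against 8). Red points rose and blue points fell with an adjusted p below 0.05. Gstm2 and Gstm7 are red in both panels and Gss is blue in both, and Prdx6 is red in the floxed panel.

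Each of the 3 thioredoxin reductases was called in at least 1 comparison, and thioredoxin itself in none. Of the 6 tested genes of this role 2 were called for genotype under vehicle (33.3%, beside 24.6% of all genes). After progesterone 1 was called for genotype (16.7%, beside 19.4%). With progesterone 2 were called in floxed mice (33.3%, beside 23%) and 0 in knockouts. Txnrd1, the cytosolic reductase, was at 17.8 to 31 RPKM (median 21.5) in floxed vehicle and 24.8 to 35.8 (median 30.9) in knockout vehicle libraries. It was at 24.6, 31.4, 30.5 and 32.0 in floxed and at 25.9, 29.8, 32.8 and 32.3 in knockout progesterone libraries. Floxed vehicle libraries were thus the lowest group, and the other 3 groups had means of 29.6 to 30.7. Knockouts exceeded floxed mice under vehicle by 0.44 (SE 0.10, adjusted p = 0.00183), with 0.54 among mixed-batch libraries (adjusted p = 0.00377) and 0.34 among vehicle-only ones (adjusted p = 0.299). Progesterone raised Txnrd1 in floxed mice by 0.39 (SE 0.13, adjusted p = 0.0327), a call lost without any of 6 single libraries (adjusted p = 0.0514 to 0.0999). The value in knockouts was -0.02, and the difference between the responses was -0.41 (adjusted p = 0.253).

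Txnrd3, a reductase best known from the testis, was lower in knockouts. It was at 6.56 to 11.3 RPKM (median 8.36) in floxed vehicle and 4.92 to 8.09 (median 5.82) in knockout vehicle libraries, and at 8.67, 9.90, 8.78 and 7.13 against 6.14, 5.93, 5.57 and 6.95 after progesterone. The groups overlapped under vehicle and not after progesterone. The log2 difference was -0.47 (SE 0.10, adjusted p = 0.000854) under vehicle and -0.45 (SE 0.14, adjusted p = 0.0247) after progesterone. Under vehicle the value was -0.51 among mixed-batch libraries (adjusted p = 0.00227) and -0.44 among vehicle-only ones (adjusted p = 0.225). The call after progesterone was lost without floxed library 2 or 7 or knockout library 5 or 6 (adjusted p = 0.0533 to 0.0866).

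Txnrd2, the mitochondrial reductase, fell with progesterone in floxed mice from 5.75 to 9.65 RPKM (median 7.56) to 5.83, 5.69, 4.69 and 5.07, a log2 change of -0.48 (SE 0.13, adjusted p = 0.01). In knockouts the value was -0.26 (adjusted p = 0.244). Txn1 and Txn2, the thioredoxins, had vehicle genotype differences of 0.08 and -0.04. Txnip ranged from 128 to 287 RPKM over the 24 libraries, and its group means of 196 ± 46.8, 201 ± 49.6, 164 ± 52.2 and 161 ± 19.5 (floxed vehicle, knockout vehicle, floxed progesterone, knockout progesterone) gave no call in any comparison.

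The thioredoxin domain-containing genes, which include folding factors of the endoplasmic reticulum, gave 3 called members. Of the 10 tested, 1 was called for genotype under vehicle (10%, beside 24.6% of all genes). After progesterone 2 were called for genotype (20%, beside 19.4%). In floxed mice 1 was called for progesterone (10%, beside 23%). Txndc16 was higher in progesterone-treated knockouts, at 22.2, 22.2, 16.2 and 15.0 RPKM against 12.6, 9.04, 13.2 and 12 in floxed libraries. That difference was 0.66 (SE 0.22, adjusted p = 0.037), lost without floxed library 2 or 9 or knockout library 4 or 5 (adjusted p = 0.0629 to 0.123). Txndc11 was lower there, at 10.1, 10.1, 10.7 and 10.4 against 12.1, 15.7, 15.2 and 15.8, a difference of -0.48 (SE 0.13, adjusted p = 0.0103). Its progesterone response in floxed mice, 0.33, was just outside the threshold (adjusted p = 0.0509). That response passed under some alternatives, such as the mixed batch alone (adjusted p = 0.0456) and quantile normalization (adjusted p = 0.0342). Txndc11 overlaps Snn (17.4 RPKM) on the opposite strand. The groups did not overlap for either gene.

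Txnl4b was lower in vehicle knockouts by -0.21 (SE 0.07, adjusted p = 0.0218), at 6.08 ± 0.458 against 7.14 ± 0.769 RPKM (n = 8 each), and did not pass in either batch alone (adjusted p = 0.126 and 0.362) or without floxed vehicle library 10 (adjusted p = 0.0508). It fell with progesterone in floxed mice to 5.60, 5.56, 5.49 and 5.32 RPKM, by -0.35 (SE 0.09, adjusted p = 0.00619). Txndc5, the most abundant of these genes, had means of 72.1 to 83.0 RPKM in the 4 groups and was not called.

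Other genes of the pathway were followed in 8 lists with 108 genes, of which 99 were tested. Under vehicle 13 were higher and 13 lower in knockouts (26.3%, near the background of 24.6%). After progesterone 9 were higher and 9 lower (18.2%). With progesterone 14 rose and 9 fell in floxed mice (23.2%), and 5 rose and 2 fell in knockouts (7.07%). Over all 8 lists together these shares lay within 2 percentage points of those of all genes, and single lists differed more.

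In the list of NRF2 and its targets, 2 of 18 tested genes were higher and 1 lower in vehicle knockouts. That is 16.7%, below the 24.6% of all genes. Hmox1, heme oxygenase 1, was at 15.5 ± 1.46 RPKM against 6.68 ± 1.06 (n = 8 each), a log2 difference of 1.17 (adjusted p = 5.52e-08). Srxn1, the sulfiredoxin that repairs overoxidised peroxiredoxins, was higher in knockouts by 0.61 under vehicle (adjusted p = 3.1e-05) and by 0.55 after progesterone (adjusted p = 0.00524). Hmox1 rose with progesterone in floxed mice by 0.85 (adjusted p = 0.000266), and its response differed between genotypes by -1.04 (adjusted p = 0.00354). Hmox1 is also strongly expressed in macrophages, and the leukocyte markers were higher in the same knockouts, with all 10 called; their part in the Hmox1 difference was not tested. Nfe2l2, the gene of NRF2, had group means between 26.0 and 29.7 RPKM.

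Of 12 tested genes of cystine uptake, cysteine supply and glutathione export, 1 was higher and 4 were lower in vehicle knockouts. That is 41.7%, beside 24.6% of all genes. Cth, which makes cysteine from cystathionine, rose with progesterone by 1.70 (adjusted p = 1.7e-09) in floxed mice, from 4.66 ± 0.577 to 16.0 ± 1.2 RPKM, and by 0.69 (adjusted p = 0.000706) in knockouts. The difference between the responses was -1.01 (adjusted p = 0.000544). Ggct, a gamma-glutamylcyclotransferase, rose in both genotypes, by 1.00 (adjusted p = 2.8e-05) and 0.87 (adjusted p = 0.000512). Of 11 tested breakdown genes 4 were lower and 2 higher in vehicle knockouts (54.5%, beside 24.6% of all genes). Ggt6, a gamma-glutamyltransferase family gene, was at 0.566 ± 0.696 against 8.08 ± 3.32 RPKM (log2 difference -3.08, adjusted p = 2.19e-09). Anpep, an aminopeptidase that also cleaves the dipeptide left from glutathione, was at 86.3 ± 13.5 against 173 ± 18.8 RPKM (-1.01, adjusted p = 2.97e-08). Chac1, which degrades glutathione inside cells, was higher in vehicle knockouts by 0.93 (adjusted p = 0.000366). The simple-epithelium and gland markers were lower in the same vehicle knockouts, with 6 of 8 and 3 of 3 tested genes called, and their part in these differences was not tested.

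Among 18 genes of NADPH supply, 4 rose and 3 fell with progesterone in floxed mice (38.9%, beside 23% of all genes). In knockouts 1 fell (5.56%, beside 8.67%). Mthfd2 and Mthfd1, folate-cycle enzymes, rose by 1.80 and 1.14 in floxed mice (adjusted p = 0.000266 and 0.000192). G6pdx, the entry enzyme of the pentose phosphate pathway, rose by 0.60 (adjusted p = 0.00517). Of the 5 genes for superoxide dismutases and catalase, Sod3 was higher in vehicle knockouts by 0.92 (adjusted p = 0.000478), and Sod2 rose with progesterone in floxed mice by 0.33 (adjusted p = 0.0131). Each was the only call of its comparison (20%, beside 24.6% and 23% of all genes). None of the 7 glutaredoxin and glyoxalase genes was called by limma in any comparison, with 1 unadjusted p below 0.05, in the vehicle genotype comparison. The NADPH oxidase subunits Ncf1, Ncf4 and Cybb, which are mainly expressed by phagocytes, were higher in knockouts under both treatments, by 0.73 to 0.93 under vehicle, as were the leukocyte markers, whose part in this was not tested. Of the 20 genes of selenium use, which several peroxidases and reductases need, 2 were higher and 1 lower in vehicle knockouts. That is 15%, below the 24.6% of all genes.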

How the data were processed

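The authors deposited 1 table of gene-level values for 24 libraries. The deposited values are a score: RPKM to which the authors applied a batch correction, as the deposited table's name says, with 6.66% of all values below 0. The tools named are TopHat, Partek and cutadapt 2.7, and the build is mm10, per the submitters' processing notes. Trizol-extracted, DNase-treated RNA went into Illumina Truseq libraries, per the labels' protocols. Counting, annotation, strand setting and the correction method are steps not given in the sources used here. In effect the correction adds 1 constant per gene and batch: vehicle means of the 2 batches were equal within 0.0001 of their value for all 13669 genes with a mean above 1 RPKM. A genotype difference in RPKM within either batch is kept by such a correction, but levels are shifted. For Gpx6 the lowest values were -0.0065 in mixed and 0.0065 in vehicle-only libraries, so both batches were shifted there. The log2 differences given here, also those within 1 batch, depend on these shifts.

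Values below 0 were set to 0, which affected 8 members and none of the 51 tested. Plain RPKM had been assumed when the tests were set. The 14284 genes that reached 1 RPKM in 4 or more libraries were tested with limma 3.58.1 in R 4.3.3 (empirical Bayes with trend and robust settings) on log2(value + 0.5), with 4 groups and a batch term, 19 residual degrees of freedom and a median prior of 3.34, two-sided, with Benjamini-Hochberg adjustment at 0.05. The log2 scale is thus computed from the deposited values, and a fold change on it understates that of low genes. The procedure was tested on simulated data for the genotypes under vehicle alone, with independent noise and no batch shift. The other comparisons were not tested in this way. Depth was estimated from the smallest value steps of at least 115 genes per library. Gene positions come from GENCODE M21.

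Members, role groups, pathway lists and marker lists were chosen with earlier results of these data known. Named in full were, per role, called members at 1 RPKM or more in their higher group, up to 6 by smallest adjusted p, and the most abundant member; Gsta4 and Gstt1 were added later. Alternatives were other pseudocounts (0.1 and 1), no filter or a 5 RPKM filter, quantile normalization, the RPKM scale, each batch alone, a replicate block, omission of each library, and omission of the 5 libraries with oviduct or squamous markers.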

Additional observations from a re-analysis of the deposited data

Results flagged for a closer look

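In 92 sets of values (23 named members in 4 groups), 9 held a library that stood apart from the rest of its group by Dixon's test at the 95% level, and chance alone flags about 1 in 20 groups. Knockout progesterone library 8 accounted for 4 of them: Gpx1 at 170.0 RPKM (the others 103 to 114), Prdx6 at 48.0 (31.8 to 32.5), Txndc5 at 90.9 (64.4 to 67.6) and Gsta4 at 54.7 (35.3 to 36.9). The squamous marker sum of this library was 19.5 RPKM, and at most 10.4 in the other mixed-batch libraries but knockout vehicle 9 (79.3). Its smooth-muscle (1973) and stroma (1389) marker sums were the highest of its group.

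Knockout vehicle library 11a was high for Txnrd3, at 8.09 RPKM (4.92 to 6.23 in the others), and for Txnrd2, at 8.99 (6.33 to 7.16). Mgst1 reached 74.5 RPKM in knockout vehicle library 5 (31.8 to 46.9), which had the highest adipose marker sum (791 RPKM) of all libraries. Gstt3 was low, at 6.58 RPKM, in floxed vehicle library 12 (9.35 to 10.8), and Txndc11 was low, at 12.1 RPKM, in floxed progesterone library 1 (15.2 to 15.8). The causes were not tested.

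The response to progesterone differed between genotypes by the interaction test for Gstm5, by 0.60 on the log2 scale (adjusted p = 0.0362), and for Gsto2, by 0.69 (adjusted p = 0.0274), as knockout response minus floxed response. Gsto2 passed the filter on low values through knockout libraries alone.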

How the results depend on the processing

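Of the 33 calls of single members, 13 held under all alternatives run for them and none changed direction. The count of members called moved by over 1.5 times in these cases: with the vehicle-only batch alone it was 3 for the genotypes under vehicle (8.25% of all genes), and without the 5 libraries with oviduct or squamous markers it was 0 for progesterone in knockouts (limma, 7 with an unadjusted p below 0.05). For the difference between the responses it was 1 with a filter at 5 RPKM, 1 with the mixed batch alone, and 1 without the 5 libraries, which was Prdx6. Leaving out single libraries gave 0 to 3 for that difference (0 without floxed progesterone library 2 or 9 or knockout progesterone library 5, with 5 to 7 unadjusted), 7 to 9 for the genotypes under vehicle, 6 to 9 after progesterone, 8 to 13 for progesterone in floxed mice and 3 to 5 in knockouts.

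Without the 5 libraries 13 of the 33 calls were lost, among them Gstm5, Gstm2, Gstm7 and Gss for progesterone in knockouts (log2 values 0.46, 0.72, 0.67 and -0.45), and each kept its direction. Fewer libraries also give a wider error. The mixed batch alone lost 4 calls (Gsta4, Gstm7 and Txnl4b for genotype under vehicle and the Gsto2 difference in response), the RPKM scale and quantile normalization 4 each, and no filter 2; Gstt1 for progesterone in floxed mice was lost in the last 3 and Gss for genotype after progesterone on the RPKM scale (adjusted p = 0.059) and after quantile normalization (adjusted p = 0.104). Without the filter, limma also called Gstm3 and Gstm6 as given above, and Gsta2 as lower in vehicle knockouts (-0.74, adjusted p = 0.0111). Quantile normalization moved the median of all genes by less than 0.1 in every comparison. Deviations of same-numbered libraries had correlations from -0.342 to 0.544 (13 pairs), and the correlation within replicate blocks was 0.22. The labels do not say whether the numbers pair libraries, and so few pairs cannot decide it. With a replicate block all 33 calls held. The counts were then 9, 8, 14, 4 and 2 in the order of the comparisons above.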
